A study of Mus musculus with 10 samples.

Results

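Pou5f1, Nanog, Sox2, Sall4, Sall1, Zfp42, Utf1 and Lin28a were followed as core pluripotency factors and markers of mouse embryonic stem cells (ESCs). They were taken by symbol: every probe set of the array whose only symbol in the platform annotation is 1 of these names was included, which gave 13 probe sets for 8 genes, out of 18193 genes with such probe sets. All 8 symbols were found in the RefSeq gene table. Pou5f1, Nanog, Sox2 and Zfp42 had 1 probe set each, Sall4, Sall1 and Lin28a had a pair, and Utf1 had 3. Where a gene had several, its value was that of the probe set with the highest mean over all 10 arrays, and the others are given beside it. No member was dim, meaning a log2 intensity under 6 on every array, although the second probe set of Sall1 and 1 of the further Utf1 probe sets were.

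The cells were CJ9, an ESC line from strain 129svj that the study's methods describe as gelatin-adapted. Lentiviruses were applied for 48 h with 10 mcg/mL polybrene, after which all groups received ESC medium with LIF and 4 mcg/mL puromycin, and RNA was taken after 48 h of culture post infection. The groups were Wapal shRNA1, Wapal shRNA2, Smc3 shRNA1, Smc3 shRNA2 and, as the negative control, Empty Vector (pLKO.1 with no hairpin), with 2 Affymetrix mouse expression arrays each. All groups, Empty Vector included, thus carried an integrated vector and had been under selection. Wapal, the product of the gene now named Wapl, removes cohesin from chromatin, and Smc3 belongs to the cohesin ring itself. The hairpins were used to ask how the transcriptome depends on its target.

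ESCs self-renew through a network of transcription factors in which Pou5f1 (Oct4) and Sox2 bind DNA side by side at composite elements, and Nanog, Sall4 and other factors act at many of the same enhancers. Zfp42 (Rex1), Utf1 and Lin28a are expressed in undifferentiated cells and are used to score the pluripotent state. Nanog and Zfp42 are also known to vary from cell to cell within a culture. In bulk RNA such as this, fewer cells expressing a gene and less RNA per cell cannot be told apart.

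Both targets were lowered. The intensity of Wapl was 929 to 1005 on the Wapal shRNA1 arrays and 217 to 235 on the Wapal shRNA2 arrays, against 2500 to 2648 with Empty Vector, and that of Smc3 was 176 to 187 with Smc3 shRNA1 and 189 to 223 with Smc3 shRNA2, against 1536 to 1555 with Empty Vector. A table published with the study exchanges the labels of 1 array of each Wapal shRNA, replicate 2 of shRNA1 and replicate 1 of shRNA2. The labels in GEO were used here, under which the Wapl levels above lie together within each Wapal shRNA. The mean of both Wapal shRNAs is the same under either labelling. The SE, the p-values and the values of the single Wapal shRNAs rest on the labels used. The median intensity of the arrays was 38.6 to 39.7. Of the ESC identity markers that are not members, Esrrb, Tdgf1, Dppa5a and Dppa4 all had log2 intensities of 8.77 or higher on every array. Esrrb nonetheless fell, by 0.66 with Wapal and 0.77 with Smc3 depletion (adjusted p = 0.0175 and 0.00913, limma). Tdgf1, Dppa5a and Dppa4 passed with neither. Defining markers were mostly dim for fibroblasts (6 of 8), primitive endoderm (6 of 7), trophectoderm (4 of 6) and ectoderm (4 of 6), but not for mesoderm (2 of 5). The mesoderm markers Mesp1, Kdr and Eomes and the ectoderm markers Pax6 and Nes were not dim. Their highest log2 values were 6.16 to 6.68, and none passed with either depletion. The summed intensity of the trophectoderm list was 257 to 426 on the Wapal shRNA arrays, 246 to 559 on the Smc3 shRNA arrays and 284 to 295 with Empty Vector. For primitive endoderm the sums were 197 to 216 with the Wapal shRNAs, 188 to 215 with the Smc3 shRNAs and 175 to 185 with Empty Vector. For fibroblasts they were 236 to 288 with the Wapal shRNAs, 252 to 327 with the Smc3 shRNAs and 311 to 364 with Empty Vector. For mesoderm they were 199.8 to 242, 209 to 217 and 216 to 257 in the same order of groups, and for ectoderm 222 to 265, 204 to 224 and 189 to 217. Of trophectoderm, Cdx2, Elf5, Hand1 and Gata3 were dim and the keratins Krt7 and Krt18 were not, with 0.52 and 0.41 in log2 with Smc3 depletion and 0.25 and 0.20 with Wapal depletion (limma, adjusted p of 0.0897 to 0.333). Of primitive endoderm, 6 of 7 were dim, Gata4 and Gata6 among them. Sox17 was not and gave 0.44 with Wapal depletion (adjusted p = 0.0562), and Pdgfra, dim, rose by 0.51 with Smc3 depletion (adjusted p = 0.0282). Of the fibroblast markers, Thy1 fell by 0.65 with Wapal depletion and fell by 0.92 with Smc3 depletion, Pdgfrb fell by 0.68 with Wapal depletion and rose by 0.57 with Smc3 depletion, and Dcn, dim, rose by 0.48 and 0.52 (adjusted p of 0.00173 to 0.0389). Of 6 listed markers of 2-cell-like cells, 3 were measured and 2 of these were dim. Their sums were 2232 to 4242 with the Wapal shRNAs, 1535 to 3034 with the Smc3 shRNAs and 1339 to 1680 with Empty Vector. The part of other cell types in the results below was not tested. The arrays were also divided into 2 sides, a split seen in earlier results of these same data and not named by any sample label. Empty Vector replicate 1, Wapal shRNA1 and Smc3 shRNA2 lay on one side and the rest on the other, with 123 of 45037 probe sets apart by more than 0.3 in log2. How many probe sets other splits of the arrays would set apart was not tested. No member was among these 123. Since each hairpin lies on 1 side, a difference between the hairpins against a gene and a difference between the sides cannot be told apart, and the values within a side are given where this matters.

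Of the 8 genes, Sall1 and Sall4 fell with Wapal depletion, the mean of both Wapal shRNAs, and Nanog, Sall1 and Zfp42 fell with Smc3 depletion. The 2 of 8 that fell with Wapal depletion stand beside 3.83% of all 45037 probe sets that fell and 2.08% that rose (adjusted p under 0.05, limma). The 3 of 8 that fell with Smc3 depletion stand beside 3.41% of all probe sets that fell and 4.22% that rose. Every member but Nanog had a negative difference with Wapal depletion and every member but Lin28a with Smc3 depletion, most of them short of the threshold. The median difference over the 8 genes was -0.28 in log2 with Wapal depletion, where the median of all probe sets was 0.02, and -0.29 with Smc3 depletion, where it was -0.00077. On all 4 Wapal arrays, 5 of the 8 genes (Sox2, Sall4, Sall1, Zfp42 and Utf1) lay below both Empty Vector arrays, as did 14.1% of all probe sets. On all 4 Smc3 arrays this held for Pou5f1, Nanog, Sall1 and Zfp42, 4 of 8, against 12.2% of all probe sets. On each array 59.6% to 60.1% of all values were under log2 6, whereas no member was dim. The shares among probe sets as bright as the members were not tested. Both comparisons use the same 2 Empty Vector arrays. Each hairpin had its own mean in the fits, and n counts arrays, not hairpins. The SE and p of a depletion thus rest on the spread between arrays of the same hairpin and leave out that between hairpins.

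**Figure D1:**
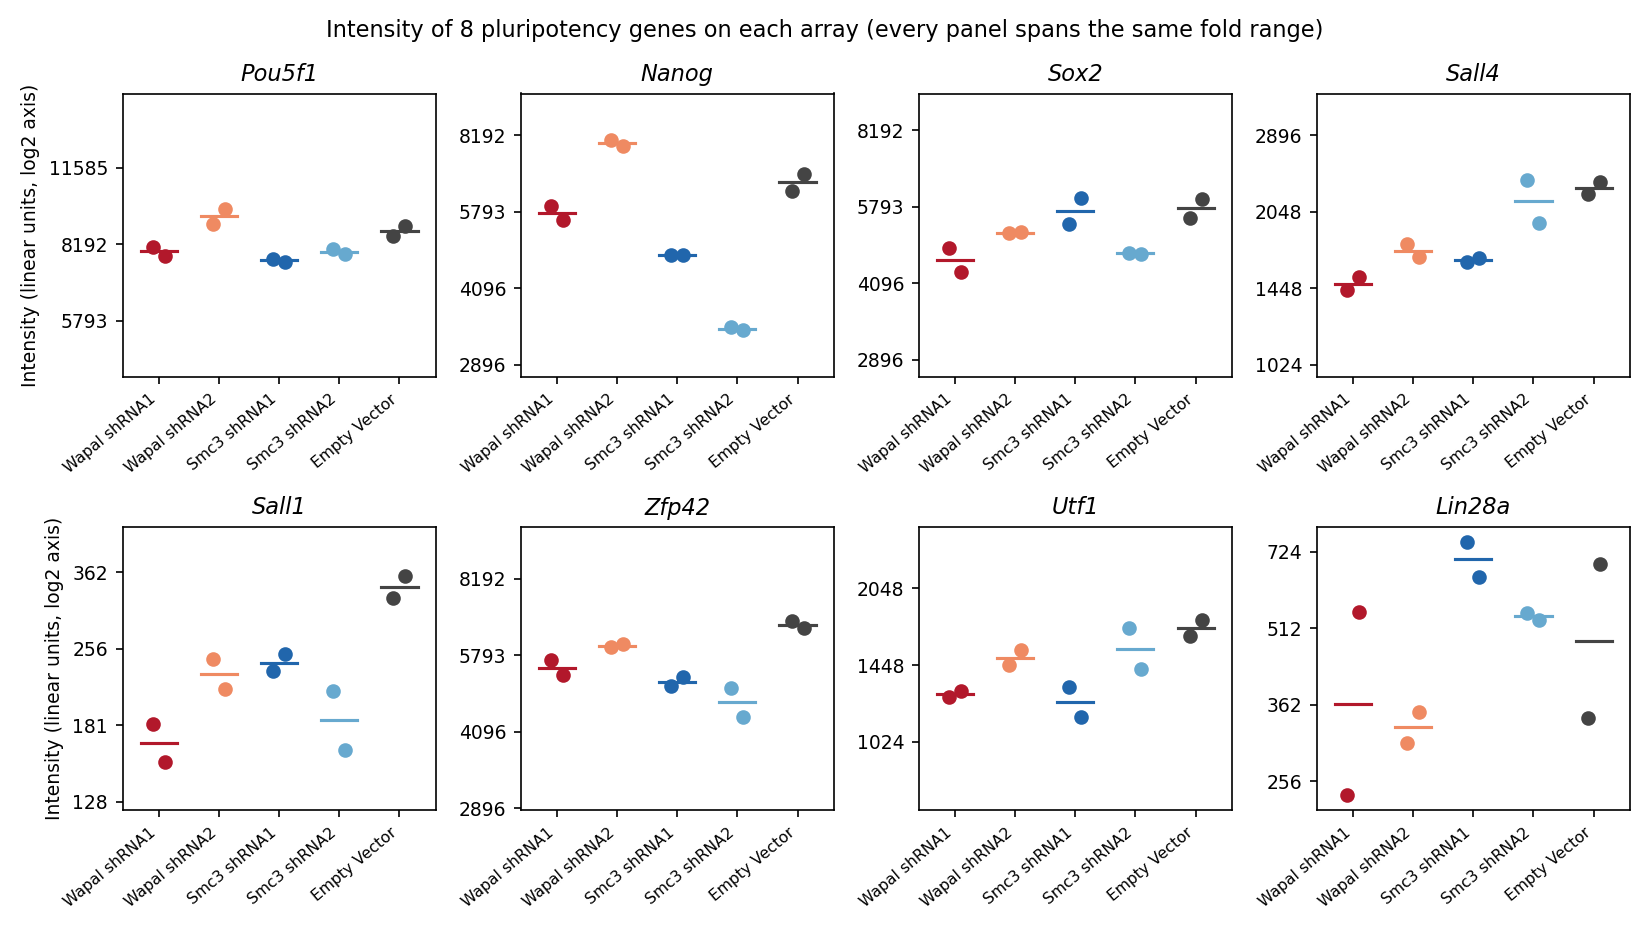
Intensity of the brightest probe set of each gene on each of the 10 arrays (points; y axis in linear units on a log2 scale that spans the same fold range in every panel), and the geometric group mean as a line; groups run from the Wapal and Smc3 shRNAs to Empty Vector. Nanog separates into all 5 groups, Sall1 is lower than Empty Vector on all 8 shRNA arrays, and the replicates of Lin28a lie far apart with Wapal shRNA1 and with Empty Vector.

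Pou5f1, the POU-domain factor at the centre of the network, was the steadiest of the 8. Its intensity was 8081 and 7774 with Wapal shRNA1, 8976 and 9612 with Wapal shRNA2, 7644 and 7572 with Smc3 shRNA1, 7999 and 7844 with Smc3 shRNA2, and 8516 and 8887 with Empty Vector. The Wapal arrays lay on both sides of Empty Vector, whereas all 4 Smc3 arrays lay below it. With Wapal depletion the difference was -0.02 ± 0.09 in log2 (SE, n = 4 against 2), with a 95% confidence interval of -0.23 to 0.19 and an adjusted p of 0.92 (limma). With Smc3 depletion it was -0.16 ± 0.09 (interval -0.36 to 0.03, adjusted p = 0.328). Over all 10 arrays the gene spanned 0.34 in log2. The order of the group means was Wapal shRNA2, Empty Vector, Wapal shRNA1, Smc3 shRNA2 and Smc3 shRNA1, and each shRNA differed from Empty Vector without passing the test (adjusted p of 0.303 to 0.639).

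Sox2, the HMG-box partner of Pou5f1, had intensities of 4815 and 4305 with Wapal shRNA1, 5138 and 5155 with Wapal shRNA2, 5359 and 6019 with Smc3 shRNA1, 4697 and 4685 with Smc3 shRNA2, and 5511 and 6003 with Empty Vector. The 4 Wapal arrays were below both Empty Vector arrays, and the Smc3 arrays overlapped them because Smc3 shRNA1 lay at their level. The difference was -0.25 ± 0.10 with Wapal depletion (adjusted p = 0.172, limma) and -0.16 ± 0.10 with Smc3 depletion (adjusted p = 0.408). Neither passed, and the intervals of -0.47 to -0.03 and -0.38 to 0.06 leave room for losses of up to 27.9% and 22.9%.

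Nanog, the homeodomain factor that stabilises self-renewal, was the member that most clearly set the depletions apart. Its intensity was 5943 and 5588 with Wapal shRNA1, 8016 and 7797 with Wapal shRNA2, 4770 and 4753 with Smc3 shRNA1, 3439 and 3384 with Smc3 shRNA2, and 6366 and 6874 with Empty Vector. No array of a group overlapped another group, and the order of the groups was Wapal shRNA2, Empty Vector, Wapal shRNA1, Smc3 shRNA1 and Smc3 shRNA2. Neither neighbour of Empty Vector differed from it by the test, with 0.26 ± 0.11 for Wapal shRNA2 (adjusted p = 0.203, limma) and -0.20 ± 0.11 for Wapal shRNA1 (adjusted p = 0.331).

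Smc3 depletion lowered Nanog by 39.1% (-0.71 ± 0.09 in log2, SE, n = 4 against 2, adjusted p = 0.00297, limma). The loss was 28.0% with Smc3 shRNA1 (adjusted p = 0.0259) and 48.4% with Smc3 shRNA2 (adjusted p = 0.00194). With any 1 of the 6 arrays left out, the value stayed between -0.77 and -0.66 and kept its call. With Wapal depletion the mean difference was 0.03 ± 0.09 (interval -0.18 to 0.24, adjusted p = 0.883). This mean averages hairpins that lay on either side of Empty Vector, and the difference between Wapal shRNA1 and Wapal shRNA2, -0.46 ± 0.11, missed the threshold (adjusted p = 0.0894). On its own side of the arrays, Nanog differed from the Empty Vector array there by -0.90 with Smc3 shRNA2 and -0.53 with Smc3 shRNA1, and by -0.14 with Wapal shRNA1 and 0.20 with Wapal shRNA2.

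The Nanog promoter is shown because Nanog had the largest fall of the 8 genes with Smc3 depletion and because its start region carries the element through which Pou5f1 and Sox2 are known to act. The sequence is from RefSeq on GRCm38.p6, 250 bases before to 50 after an annotated start on the plus strand, chr6:122707315-122707614, with the element in capitals.
Nanog promoter: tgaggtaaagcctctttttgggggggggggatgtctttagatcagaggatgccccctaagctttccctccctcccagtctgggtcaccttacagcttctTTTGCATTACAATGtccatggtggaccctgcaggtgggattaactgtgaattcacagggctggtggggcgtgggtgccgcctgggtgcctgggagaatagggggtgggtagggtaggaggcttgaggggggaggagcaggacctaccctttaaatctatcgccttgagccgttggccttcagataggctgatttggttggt
The capitals mark the only match to CATTGT, any base, then ATGCAAA, read on the minus strand. It lies from -151 to -138 relative to this start, whose base is counted as 0, and also in the window of a second annotated Nanog start. Over both strands, 2 of 32851 promoters of the same length (0.00609%) held this exact string, and these were the windows of the 2 Nanog starts. The letters were chosen with the Nanog element known, and a match is a description of the sequence. CATTGT alone was found in 12.6% of all promoters. Among the other members it was present in the window of 1 of the 2 Pou5f1 starts and in that of Lin28a.

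Sall4, a zinc-finger factor of the spalt family that ESCs need for self-renewal, had intensities of 1433 and 1521 with Wapal shRNA1, 1769.7 and 1667 with Wapal shRNA2, 1627 and 1664 with Smc3 shRNA1, 2364 and 1947 with Smc3 shRNA2, and 2217 and 2338 with Empty Vector. The Wapal arrays and the Smc3 shRNA1 arrays were all below Empty Vector, while Smc3 shRNA2 replicate 1 was above it. Wapal depletion lowered Sall4 by 30.0% (-0.52 ± 0.09 in log2, SE, n = 4 against 2, adjusted p = 0.0213, limma). Its dimmer probe set gave -0.58 ± 0.12 (adjusted p = 0.032). The call was lost whichever 1 of the 6 arrays was left out, with adjusted p from 0.061 to 0.078 and a value from -0.55 to -0.48. With Smc3 depletion the difference was -0.28 ± 0.11 (adjusted p = 0.17). By hairpin it was -0.47 for Smc3 shRNA1 (adjusted p = 0.0505) and -0.09 for Smc3 shRNA2 (adjusted p = 0.756). The dimmer probe set gave -0.40 ± 0.11 with Smc3 depletion (adjusted p = 0.0553, limma). On that probe set the hairpins gave -0.45 for Smc3 shRNA1 and -0.36 for Smc3 shRNA2 (adjusted p = 0.0603 and 0.119).

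Sall1, a second spalt-family zinc-finger gene, was lower than Empty Vector on all 8 shRNA arrays. Its intensity was 182 and 154 with Wapal shRNA1, 244 and 213 with Wapal shRNA2, 231 and 251 with Smc3 shRNA1, 212 and 162 with Smc3 shRNA2, and 322 and 356 with Empty Vector. The loss was 42.3% with Wapal depletion (-0.79 ± 0.11 in log2, SE, n = 4 against 2, adjusted p = 0.0108, limma) and 37.7% with Smc3 depletion (-0.68 ± 0.12, adjusted p = 0.0145). With Wapal depletion the call held without any 1 array (adjusted p up to 0.0493). With Smc3 depletion it was lost without Smc3 shRNA1 replicate 1 (-0.65, adjusted p = 0.0537) and held without each of the other arrays. By hairpin, the loss was 50.6% with Wapal shRNA1 (adjusted p = 0.00952) and 45.3% with Smc3 shRNA2 (adjusted p = 0.0103), whereas Wapal shRNA2 (32.7%, adjusted p = 0.0537) and Smc3 shRNA1 (28.9%, adjusted p = 0.0756) did not pass. Against the Empty Vector array of the same side, Sall1 differed by -0.94 with Wapal shRNA1, -0.64 with Wapal shRNA2, -0.80 with Smc3 shRNA2 and -0.57 with Smc3 shRNA1. The second Sall1 probe set was dim on every array (41.6 to 59.3) and gave -0.20 and -0.32 for Wapal and Smc3 depletion, neither of which passed (adjusted p = 0.334 and 0.13).

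Zfp42, a zinc-finger gene and classical marker of undifferentiated cells, had intensities of 5672 and 5291 with Wapal shRNA1, 6001 and 6096 with Wapal shRNA2, 5030.0 and 5238 with Smc3 shRNA1, 4992 and 4383 with Smc3 shRNA2, and 6773 and 6541 with Empty Vector. All 8 shRNA arrays were below both Empty Vector arrays. All 4 Smc3 arrays were below all 4 Wapal arrays, as for 6.87% of all probe sets. Smc3 depletion lowered Zfp42 by 26.4% (-0.44 ± 0.10 in log2, SE, n = 4 against 2, adjusted p = 0.0282, limma). This call held only when Smc3 shRNA2 replicate 1 was the array left out (adjusted p = 0.0481) and was lost without any other, with adjusted p up to 0.119. With Wapal depletion the difference was -0.21 ± 0.09, which did not pass (adjusted p = 0.21). The promoter of Zfp42, which fell with Nanog in Smc3-depleted cells, is shown for comparison with that of Nanog (RefSeq, GRCm38.p6, minus strand, chr8:43306960-43307259, written 5′ to 3′).
Zfp42 promoter: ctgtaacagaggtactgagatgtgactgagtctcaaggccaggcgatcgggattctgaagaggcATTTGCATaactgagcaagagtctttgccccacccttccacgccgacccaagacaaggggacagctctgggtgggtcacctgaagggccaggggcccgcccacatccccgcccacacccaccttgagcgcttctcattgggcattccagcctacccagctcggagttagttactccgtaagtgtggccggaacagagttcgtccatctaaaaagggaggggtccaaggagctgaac
The capitals mark the octamer ATTTGCAT, the sequence to which POU-domain proteins bind, from -186 to -179 relative to the start. It was present in 1.74% of all 32851 promoters when searched on both strands, and among the 7 members with such windows (all but Sall4) only in Zfp42. The string TCAAGGTCA, bound by Esrrb and Nr5a2, was in 0.423% of all promoters and in none of their 11 windows. The windows of Sox2, Sall1 and Utf1 held none of the strings searched.

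Utf1, a chromatin-bound factor of undifferentiated cells, had intensities of 1252 and 1285 with Wapal shRNA1, 1448 and 1549 with Wapal shRNA2, 1313 and 1143 with Smc3 shRNA1, 1711 and 1422 with Smc3 shRNA2, and 1654 and 1774 with Empty Vector. The Wapal arrays were all below Empty Vector and the Smc3 shRNA2 arrays overlapped it. The difference was -0.31 ± 0.09 with Wapal depletion (adjusted p = 0.0878, limma) and -0.31 ± 0.11 with Smc3 depletion (adjusted p = 0.153). For Wapal depletion its probe sets differed in sign. The second probe set read 95.05 and 101.48 with Wapal shRNA1, 98.31 and 98.49 with Wapal shRNA2, and 93.81 and 88.79 with Empty Vector, a difference of 0.11 (adjusted p = 0.52). With Smc3 depletion it gave -0.28 ± 0.14 (adjusted p = 0.291). The third was dim on every array (15.2 to 19.8).

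Lin28a, an RNA-binding protein that blocks the maturation of let-7 miRNAs, was the least reproducible member. Its intensity was 240.4 and 551 with Wapal shRNA1, 305 and 351 with Wapal shRNA2, 756 and 647 with Smc3 shRNA1, 549 and 533 with Smc3 shRNA2, and 341 and 684 with Empty Vector. The Empty Vector arrays differed by 1.00 in log2 and the Wapal shRNA1 arrays by 1.20, where the SD of the replicate differences over all probe sets was 0.19 to 0.25. The difference from Empty Vector was -0.49 ± 0.34 with Wapal depletion (adjusted p = 0.436, limma) and 0.35 ± 0.23 with Smc3 depletion (adjusted p = 0.455). The value for Smc3 depletion was 0.85 (adjusted p = 0.00617) without Empty Vector replicate 2 and -0.15 without Empty Vector replicate 1, so 1 array sets its sign. The second Lin28a probe set was steadier. It read 156 and 172 with Wapal shRNA1, 140.5 and 156 with Wapal shRNA2, 259 and 227 with Smc3 shRNA1, 196 and 205 with Smc3 shRNA2, and 186 and 221 with Empty Vector, which gave -0.38 ± 0.11 for Wapal depletion (adjusted p = 0.0855) and 0.12 ± 0.11 for Smc3 depletion (adjusted p = 0.592).

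**Figure D2:**
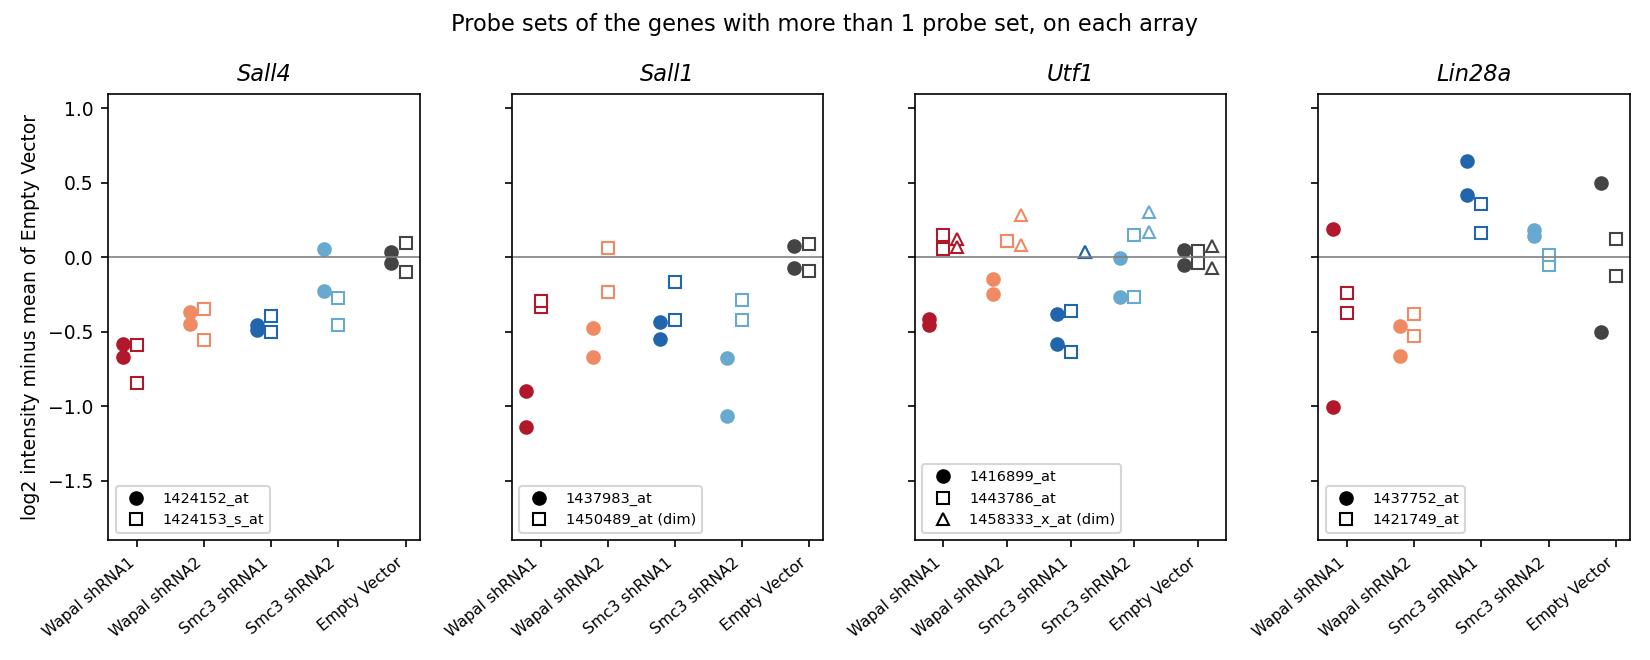
log2 intensity minus the mean of the Empty Vector arrays (y axis) on each array for every probe set of the 4 genes with more than 1; filled circles are the brightest probe set and open symbols the others. Both Sall4 probe sets are lower with the Wapal shRNAs, whereas for Lin28a the replicates with Wapal shRNA1 and with Empty Vector lie further apart on the brighter probe set than on the other.

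A direct comparison of the depletions does not use the levels of Empty Vector, whose arrays enter only the estimate of the spread. Nanog and Zfp42 were higher with Wapal than with Smc3 depletion, and Lin28a was lower. The 2 of 8 genes that were higher stand beside 6.71% of all probe sets, and the 1 that was lower beside 10.7%. Nanog was higher by 0.74 ± 0.07 in log2 (1.67-fold, SE, n = 4 against 4, adjusted p = 8.84e-05, limma). The Nanog difference kept its call with any 1 array left out. All 4 Wapal arrays were above all 4 Smc3 arrays for Nanog and Zfp42, 2 of 8 genes, as for 6.87% of all probe sets. By hairpin, the mean log2 of Nanog was 12.49 and 12.95 with Wapal shRNA1 and shRNA2, and 12.22 and 11.74 with Smc3 shRNA1 and shRNA2. That spread between hairpins is not part of the SE or the p-value. Zfp42 was higher by 0.23 ± 0.07 (1.17-fold, adjusted p = 0.0481). It lay near the threshold and lost its call with each left-out shRNA array except Smc3 shRNA2 replicate 1 (adjusted p up to 0.151). Lin28a differed by -0.83 ± 0.25 (adjusted p = 0.0435), a call that was lost with each left-out shRNA array except Wapal shRNA1 replicate 2 (adjusted p of 0.0776 to 0.124). The difference was -0.53 without Wapal shRNA1 replicate 1. It did not pass after quantile normalization (adjusted p = 0.071), with an offset of 16 (adjusted p = 0.0667) and with an intensity trend and robust variance (adjusted p = 0.164). On its steadier probe set the difference was -0.50 ± 0.09 (adjusted p = 0.00281).

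The other genes did not pass in this comparison. Sall4 gave -0.24 ± 0.08 (adjusted p = 0.0629), Pou5f1 0.14 ± 0.07 (adjusted p = 0.164), Sall1 -0.11 ± 0.10 (adjusted p = 0.498) and Sox2 -0.09 ± 0.07 (adjusted p = 0.435, limma). Utf1 gave -0.0047 ± 0.08 on its brightest probe set (interval -0.19 to 0.18), but 0.39 ± 0.10 on its second (adjusted p = 0.0239). For Sall1 the interval of -0.34 to 0.11 sets the size of difference between the depletions that these arrays could have missed.

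**Figure D3:**
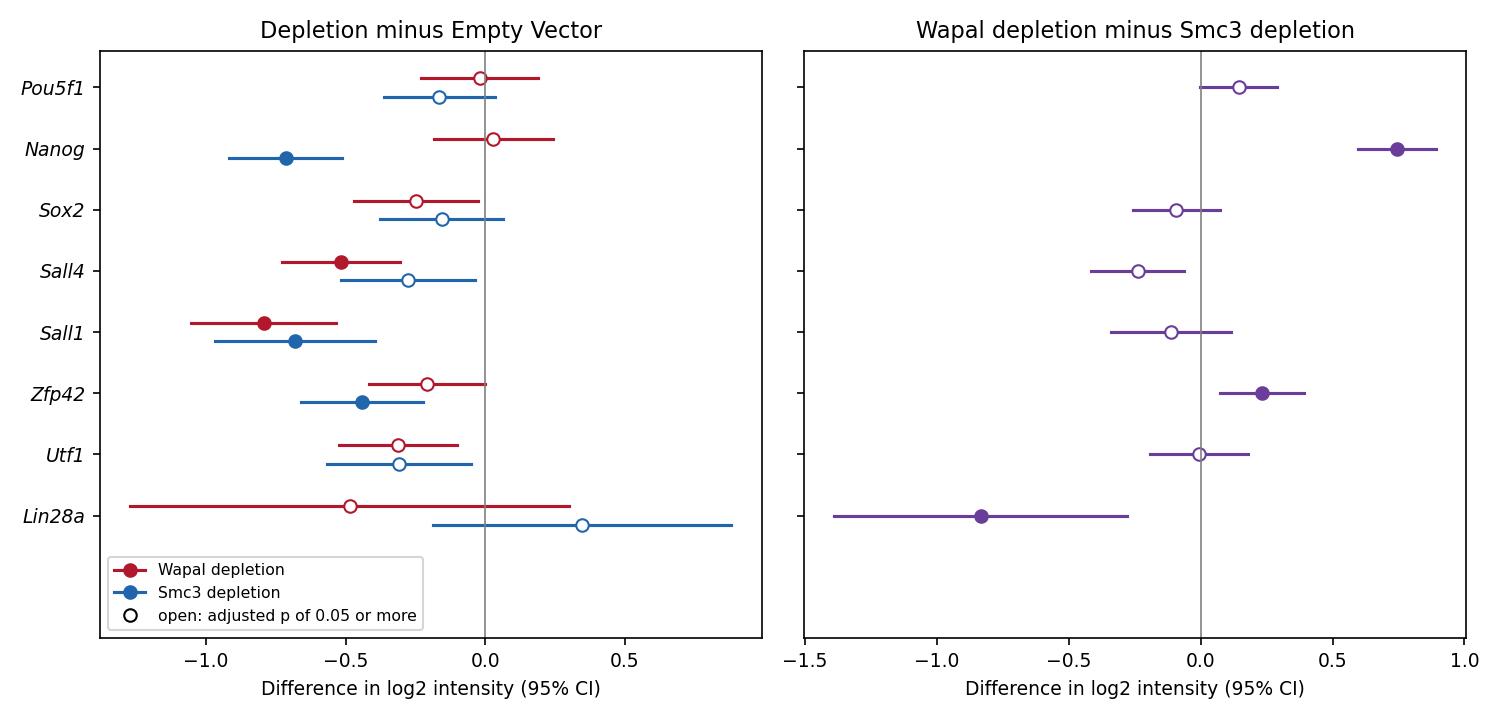
Difference in log2 intensity (x axis) of each gene with its 95% confidence interval, for Wapal and Smc3 depletion minus Empty Vector (left) and Wapal minus Smc3 depletion (right); filled points have an adjusted p under 0.05 (limma). Nanog lies at 0.03 with Wapal depletion and at -0.71 with Smc3 depletion, and the direct difference is 0.74.

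The hairpins were also compared singly with Empty Vector. Wapal shRNA1 lowered 2 of the 8 genes, Sall1 and Sall4 (-0.62, adjusted p = 0.0209, limma), where 4.63% of all probe sets passed in either direction. Both calls were lost without either array of this shRNA, and that of Sall4 also without Empty Vector replicate 2 (adjusted p from 0.0565 to 0.12). With Wapal shRNA2, the hairpin with the lower Wapl level, 0 of 8 passed in limma, against 3.75% of all probe sets. At an unadjusted p under 0.05 there were 3 (Nanog, Sall4 and Sall1) in limma and 4 by the test of the methods, which gave 0 after adjustment. Smc3 shRNA1 lowered Nanog alone, 1 of 8 (8.69% of all probe sets), and this call was lost whichever array of the fit was left out (adjusted p from 0.0508 to 0.142). Smc3 shRNA2 lowered 3 of 8, Nanog, Sall1 and Zfp42 (-0.51, adjusted p = 0.0287), where 7.65% of all probe sets passed. There the Nanog call held without any 1 array, that of Sall1 was lost without Smc3 shRNA2 replicate 2 (adjusted p = 0.0814), and that of Zfp42 was lost in each fit with 1 array fewer (adjusted p of 0.0512 to 0.19). Between the Wapal shRNAs 0 of 8 differed (1.11% of all probe sets did), with 2 at an unadjusted p under 0.05 in limma and 2 by the methods' test, which gave 0 after adjustment. Between the Smc3 shRNAs Nanog differed, 1 of 8 (9.89% of all probe sets). It was higher with Smc3 shRNA1 than with Smc3 shRNA2 by 0.48 ± 0.10 (adjusted p = 0.0226), and lost this call without any 1 of the 4 Smc3 arrays (adjusted p up to 0.136). That comparison runs along the sides of the arrays, between which the Empty Vector arrays differed in Nanog by 0.11 in the same direction.

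Other genes of the pluripotency network were read from lists written from general knowledge, but with earlier results of these data known. Their counts stand beside 3.83% of all probe sets that fell and 2.08% that rose with Wapal depletion. With Smc3 depletion 3.41% of all probe sets fell and 4.22% rose. Of 14 measured transcription factors of the naive state, 7 fell with Wapal depletion (median -0.52) and 8 fell and 1, Mycn, rose with Smc3 depletion (median -0.64; limma, adjusted p under 0.05). Prdm14, a factor that restrains FGF signalling, fell by 0.52 with Wapal depletion (adjusted p = 0.0343) and fell by 1.57 with Smc3 depletion, to 0.337-fold of Empty Vector (adjusted p = 0.00023). Tbx3, a T-box factor of self-renewal, fell by 1.05 and 1.32 (adjusted p = 0.00503 and 0.00152). Gbx2, a homeobox gene downstream of LIF, gave -0.57 with Wapal depletion (adjusted p = 0.0763) and fell by 1.55 with Smc3 depletion (adjusted p = 0.00219). Nr0b1, a nuclear receptor that binds Pou5f1, gave -0.35 (adjusted p = 0.0579) and fell by 0.73 (adjusted p = 0.00428). The medians of these factors thus lay further below 0 than those of the 8 core factors and markers, which is a description of the lists.

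Of 16 other pluripotency markers, 1 rose and 1 fell with Wapal depletion (median -0.04), and 3 rose and 1 fell with Smc3 depletion (median -0.0056). Dnmt3l, a cofactor of de novo DNA methylation, rose 1.80-fold with Smc3 depletion (adjusted p = 0.00278, limma) and gave 0.14 in log2 with Wapal depletion (adjusted p = 0.487). Eras, an ESC-specific Ras protein, fell by 0.70 with Smc3 depletion (adjusted p = 0.00423) and gave -0.08 with Wapal depletion (adjusted p = 0.681). Dppa3 rose with both, by 0.59 and 0.48 (adjusted p = 0.0348 and 0.0368), at a low level (log2 intensity at most 6.55). Jarid2, a partner of Polycomb repressive complexes, rose by 0.41 with Smc3 depletion (adjusted p = 0.0257) and gave -0.17 with Wapal depletion (adjusted p = 0.3).

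**Figure D4:**
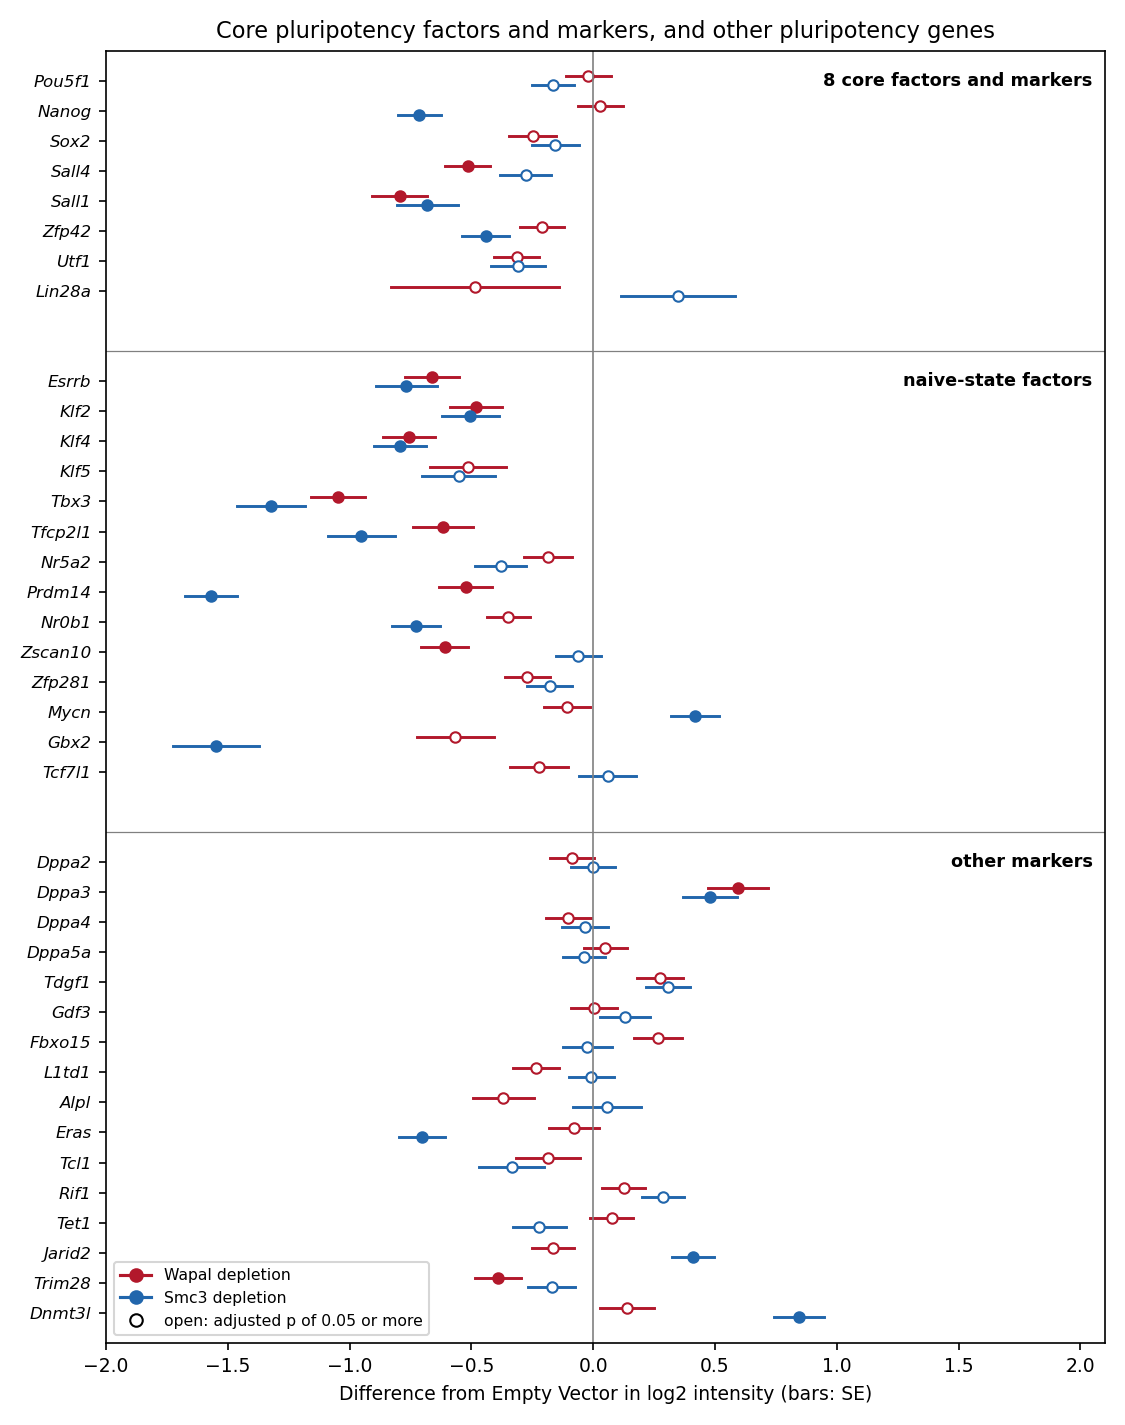
Difference from Empty Vector in log2 intensity (x axis, bars are SE) with Wapal depletion and with Smc3 depletion for the 8 core factors and markers, 14 naive-state transcription factors and 16 other pluripotency markers; filled points have an adjusted p under 0.05 (limma). Prdm14 (-1.57), Gbx2 (-1.55) and Tbx3 (-1.32) lie furthest to the left with Smc3 depletion.

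Among 14 genes of LIF and FGF signalling, 2 rose and 1 fell with Wapal depletion and 2 rose and 2 fell with Smc3 depletion. Socs3, an inhibitor induced by LIF, rose by 0.47 and 0.46 (adjusted p = 0.0475 and 0.047, limma). Spry4 and Etv4, which FGF signalling induces, fell by 0.61 and 0.67 with Smc3 depletion (adjusted p = 0.0137 and 0.0153) and gave -0.33 and -0.41 with Wapal depletion (adjusted p = 0.0996 and 0.0546). Fgfr2 rose by 0.55 with Smc3 depletion (adjusted p = 0.0206). Of 7 measured genes with known Oct-Sox elements, 2 rose and 1 fell with Wapal depletion and 3 rose with Smc3 depletion. Fgf4, Fbxo15, Tdgf1, Jarid2 and Zscan10 among them are also counted in the lists above, so these counts are not separate. Fgf4 rose by 0.50 with Wapal depletion (adjusted p = 0.0481, limma) and gave -0.24 with Smc3 depletion (adjusted p = 0.288). Lefty1, an inhibitor of Nodal signalling, rose 2.26-fold with Wapal depletion (adjusted p = 0.00627) and 8.35-fold with Smc3 depletion (adjusted p = 3.26e-05). Nodal itself rose by 0.57 with Smc3 depletion (adjusted p = 0.00772), and Zscan10, a zinc-finger factor that is also in the naive-state list, fell by 0.61 with Wapal depletion (adjusted p = 0.0151).

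Of 10 measured relatives of the members, of which 5 were dim, 2 rose and 1 fell with Smc3 depletion. Pou3f1, a POU-domain relative of Pou5f1, rose 3.10-fold (adjusted p = 0.000246, limma), Sall2 rose by 0.62 (adjusted p = 0.0294) although it was dim on every array, and Sox15, a relative of Sox2, fell by 0.57 (adjusted p = 0.0297). With Wapal depletion Pou3f1 gave 0.51 (adjusted p = 0.098), Sall2 0.04 (adjusted p = 0.94) and Sox15 -0.11 (adjusted p = 0.625), and Sox21 gave -0.39 (adjusted p = 0.0516). The 2-cell-like markers Tcstv3, dim on every array, and Usp17la rose with Wapal depletion, by 0.78 and 1.09 (adjusted p = 0.0188 and 0.00533), and Usp17la rose by 0.54 with Smc3 depletion (adjusted p = 0.0272). Usp17la was at log2 10.3 or higher on every array, Empty Vector included. Tcstv1, also dim, gave 0.45 with Wapal and -0.02 with Smc3 depletion (adjusted p = 0.0854 and 0.94). Tcstv3 gave 0.41 with Smc3 depletion (adjusted p = 0.0981). Zscan4c, Zscan4d and Zscan4f, also in this list, had no probe set of their own.

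The pattern of a gene over the 10 arrays was compared with that of the other measured genes by the root mean square (RMS) difference of log2 values, each set to the mean of Empty Vector as 0. Of 9688 genes, those nearest to Nanog were Niban1, Sfrp1 and Rab27a (RMS of 0.144, 0.145 and 0.152, where Nanog itself lay 0.50 from Empty Vector). Those nearest to Sall4 were Rnf111, Dhrs4 and Kri1 (0.05, 0.06 and 0.08), and those nearest to Sall1 were Cacna1a, B4galnt4 and Fbp2 (0.14, 0.16 and 0.16). Nearest to Zfp42 were Mtmr7, Nr5a2 and Adat2 (0.06, 0.07 and 0.07). Among the members themselves, Sall4 and Utf1 were the closest pair (0.15), followed by Pou5f1 and Sox2 (0.19), and Nanog and Lin28a were the most distant (0.85). All these values share the same arrays and the same 2 controls, and are given as a description.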

How the data were processed

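RNA of each sample had been hybridised to 1 array. The deposited intensity of a probe set is linear and was computed by the authors with RMA, which corrects background, quantile-normalizes the arrays and summarises the probes. Its version is not given in the sources used here. RMA gives arrays nearly the same distribution, so a shift of most genes in 1 direction cannot be seen. Of 45101 probe sets, 64 controls were left out. Probe sets with 1 symbol (34945) were named, those with several (932) or none (9160) were not. After log2 transformation, limma 3.58.1 (R 4.3.3) was run with 1 mean per group, two-sided, with Benjamini-Hochberg adjustment over all 45037 probe sets and a threshold of 0.05. Each depletion was fitted with Empty Vector on 6 arrays, and Wapal against Smc3 depletion on all 10. Between 59.6% and 60.1% of values on an array were under log2 6, and the number of arrays limits the precision. The replicates are called biological, but whether they were separate infections is not given in the sources used here. The spread behind each limma p-value is that between arrays of the same group and may be technical. It leaves out differences between hairpins against the same gene.

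The members and lists were chosen with earlier results of these data known. All 8 members are named, and in each list the 4 genes with the smallest adjusted p. The fit for Wapal depletion was run on simulated arrays. Their spread was that between arrays of the same hairpin, and the planted changes were equal for both hairpins. Differences between hairpins or sides were not simulated, nor were changes as small as those of the members called with Wapal depletion. Same-numbered arrays showed little shared deviation between groups, with correlations of -0.16 to 0.06. Whether same-numbered samples were prepared together is not given in the sources used here. Alternatives were quantile normalization again, an offset of 16, leaving out dim probe sets, an intensity trend with robust variance, all arrays in 1 model, the mean of a gene's probe sets, a replicate block, the side of the arrays as a factor, the methods' test and leaving out each array. The methods' test is a t-test with pooled variance. The study's methods name t-tests in general and give no model for the arrays. It takes all arrays of a depletion as 1 group, so its spread includes that between hairpins.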

Additional observations from a re-analysis of the deposited data

Results flagged for a closer look

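Effects that differed between the depletions, by the test of the difference itself, were those of Nanog, Zfp42 and Lin28a. Wapal minus Smc3 depletion was 0.744 in log2 for Nanog, 0.232 for Zfp42 and -0.834 for Lin28a (limma, all 10 arrays, adjusted p = 8.84e-05, 0.0481 and 0.0435). The call of Lin28a was kept in 9 of 20 alternatives and lost in 11, and with 1 array left out it was kept in 3 of 10, as was that of Zfp42. Nanog was also higher with Smc3 shRNA1 than with Smc3 shRNA2, by 0.481 (adjusted p = 0.0226), between arrays that lie on different sides. With 2 arrays a group, no test for single outlying arrays was made.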

How the results depend on the processing

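Of 1136 values of single genes under an alternative, 963 kept direction and side of the threshold, 70 lost a call, 81 gained one and 22 changed sign, none of which was a called value. Counts of genes called with Wapal depletion (2), Smc3 depletion (3) and between them (3) were 5, 6 and 4 with an intensity trend and robust variance and 0, 0 and 0 with the methods' test after adjustment. Without adjustment that t-test kept all of these calls (p of 0.00655 to 0.0315). Zfp42 with Wapal depletion and Pou5f1 with Smc3 depletion were then called too. Quantile normalization again left 1 (Nanog) of the 3 between the depletions. With 1 array left out the counts were 1, 1 to 3 and 1 to 3.

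For Wapal shRNA1 (2), the trend gave 6, the methods' test 4 unadjusted and 0 adjusted, and 1 array left out 0 to 2. For Wapal shRNA2 (0), the offset, dim probe sets left out, trend, 10 arrays, mean of probe sets and unadjusted methods' test gave 2, 2, 3, 1, 1 and 4. For Smc3 shRNA1 (1), quantile normalization gave 2, the same 6 settings 4, 5, 6, 4, 4 and 6, the adjusted methods' test 0, and 1 array left out 0 to 1. For Smc3 shRNA2 (3), the adjusted methods' test gave 0 and 1 array left out 1 to 3. Between the Wapal shRNAs (0) the 6 settings gave 1, 1, 2, 1, 1 and 2. Between the Smc3 shRNAs (1), dim probe sets left out gave 2, the trend 4, 10 arrays 2, the adjusted methods' test 0, and 1 array left out 0 to 1. The cause was not tested.

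Sign changes with 1 array left out were, for Wapal depletion, Nanog -0.026 to 0.085, Pou5f1 -0.051 to 0.011 and Lin28a -0.99 to 0.016. For Smc3 depletion it was Lin28a, -0.15 to 0.85, and between the depletions Utf1, -0.071 to 0.062. For single shRNAs they were Lin28a -1.01 to 0.19 with Wapal shRNA1, -0.34 to 0.66 with Smc3 shRNA2 and -0.44 to 0.75 between the Wapal shRNAs, Sox2 -0.10 to 0.066 with Smc3 shRNA1, and Sall4 -0.23 to 0.054 with Smc3 shRNA2. Quantile normalization turned Utf1 between the depletions to 0.020 and Sox2 with Smc3 shRNA1 to 0.0018. The mean of probe sets turned Utf1 to 0.13 between the depletions, 0.033 with Wapal shRNA2 and 0.014 with Smc3 shRNA2, and Sall1 between the depletions to 0.0055.

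The replicate block gave 2 genes between the depletions against 3 without it, since Zfp42 lost its call (adjusted p = 0.0619), as it did with the side as a factor (adjusted p = 0.0752), and it moved no other count. With 2 arrays a group and the spread between them, small losses could not be called.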
